A study of Homo sapiens with 10 samples.

Results

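The 9 genes described here encode p53's main feedback inhibitors and a set of its direct transcriptional targets: MDM2, MDM4, CDKN1A, GADD45A, BBC3, PMAIP1, ZMAT3, SESN1 and RRM2B. They are picked by gene symbol, each matched 1 identifier among the 57820 genes of the count files, and all 9 passed the filter on low counts that left 16006 genes for testing. Their RNA was read out in 10 poly(A)-enriched sequencing libraries, made from D425 and HD-MB03. These are established cell lines of Group 3 medulloblastoma, a childhood tumour of the cerebellum. D425 gave 2 libraries of parental cells, 1 of cells with the empty vector and 3 of cells with a short hairpin RNA against CRX (shCRX). HD-MB03 gave 1 parental, 1 vector and 2 shCRX libraries. The hairpin or the empty cassette sat in the lentiviral vector Tet-pLKO-puro, which is switched on by doxycycline. Cells were given doxycycline at 4 µg/ml for 72 h, in medium with serum, and the protocol is stated alike for parental, vector and hairpin samples. Transduced cells were stable polyclonal populations, so no library stands for a single clone. A pair of hairpin sequences is named, with no label tying either to a library, and each line's shCRX libraries therefore form 1 group, with its parental and vector libraries as its controls.

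The transcription factor p53 is held low in unstressed cells by MDM2, the ubiquitin ligase that marks it for degradation, and by MDM4, a relative of MDM2 that blocks its activation domain. DNA damage and other stresses release it, and it then activates genes that stop the cell cycle (CDKN1A, GADD45A), trigger apoptosis (BBC3, which encodes PUMA, and PMAIP1, which encodes NOXA), supply nucleotides for repair (RRM2B) and adjust RNA processing and growth signalling (ZMAT3, SESN1). It also activates MDM2, which closes a negative feedback loop. Several of these genes, CDKN1A, GADD45A and PMAIP1 among them, are also controlled by other factors, so their RNA is not a direct reading of p53 activity.

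Libraries held between 1.96 and 18.06 M reads counted in genes, least in the HD-MB03 parental and vector libraries, where 30.9% and 26.4% of reads did not align against 4.54% to 7.99% in the other 8. Library numbers in the file names ran from 20 to 62 for D425 shCRX and HD-MB03 controls and from 110 upward for D425 controls and HD-MB03 shCRX, called the low and the high number set here. Within a line the number set and the arm cannot be told apart. The lines can be compared inside each set, but there the shCRX libraries of 1 line stand against the controls of the other. Line and arm cannot be told apart in such a comparison. Levels below are in CPM, a gene's counts per 1 M reads of the scaled library. CRX, the targeted homeobox gene, fell in D425 (47.4 ± 17.6 to 22.2 ± 2.74 CPM, SD, n = 3 and n = 3; edgeR log2 fold change -1.10, adjusted p = 0.0436). That call did not hold in 12 of 18 alternatives (-1.58 to -0.81), among them leaving out any 1 library other than D425 parental replicate 2 (edgeR adjusted p = 0.171 without the D425 vector library). HD-MB03 controls held 12.4 ± 0.113 CPM and the libraries labelled shCRX 25.6 ± 3.00 (SD, n = 2 and n = 2), a difference of 1.04 that did not pass (edgeR adjusted p = 0.174) and whose sign was opposite to the label in all 18 alternatives (0.92 to 1.17). Directions given for HD-MB03 follow the labels. Summed CPM of 6 classifier genes of Group 3 tumours lay between 585 and 1430 in D425 and between 1492 and 2346 in HD-MB03. The summed level was 4.68 to 16.6 CPM for 6 fibroblast markers, 2.90 to 16.8 in D425 and 3.08 to 3.75 in HD-MB03 for 6 immune markers, and 0 to 1.73 for the 4 of 5 endothelial markers found. CD3E and AIF1 held 0 counts in every library. Of the 3 immune markers tested, 2 passed as higher in D425, CSF1R and PTPRC, named after their values were seen, and PTPRC held 0 counts in every HD-MB03 library. The part of these markers in the line differences below was not tested. Whether replicates are independent cultures is not given in the sources used here, and the p-values then reflect only how far these libraries lie apart, which may be technical.

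Sequence around the start sites is shown for 4 members, because it lets the genes be compared by the DNA motif that p53 binds. RefSeq promoter windows were read here for 7 of the 9 members, in 13 windows. They run from 250 bases before to 50 after the start in build GRCh38.p14, while the counts were made on GRCh37. GADD45A and RRM2B were not part of this reading, so whether their windows hold the motif was not tested. The p53 consensus half-site of 10 bases was searched as a full site of 20 bases, that is 2 half-sites with no spacer, on both strands, with at most 3 mismatches. Such a site was found in MDM2, SESN1 and PMAIP1, and capitals mark it in the windows below. The best match in the CDKN1A window had 5 mismatches. Such a site is held by 5.2% of the 35116 windows in RefSeq's set, and of 27305 genes 6.39% hold one in any window. The limit of 3 mismatches was set after the matches were seen.
MDM2, chr12:68808767-68809066, + strand: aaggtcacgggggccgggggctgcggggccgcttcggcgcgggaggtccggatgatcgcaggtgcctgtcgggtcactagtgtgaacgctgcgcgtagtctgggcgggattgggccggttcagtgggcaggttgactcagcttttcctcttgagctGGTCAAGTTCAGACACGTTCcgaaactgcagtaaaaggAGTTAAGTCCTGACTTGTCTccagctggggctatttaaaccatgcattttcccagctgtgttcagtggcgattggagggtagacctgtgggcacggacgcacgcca
SESN1, chr6:109008939-109009238, - strand: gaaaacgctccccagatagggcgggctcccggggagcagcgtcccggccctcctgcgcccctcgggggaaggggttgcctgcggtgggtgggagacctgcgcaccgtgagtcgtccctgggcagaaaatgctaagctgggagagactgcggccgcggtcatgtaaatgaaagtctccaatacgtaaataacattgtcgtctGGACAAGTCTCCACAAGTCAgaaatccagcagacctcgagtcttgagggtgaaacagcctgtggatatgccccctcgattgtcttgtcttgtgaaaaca
PMAIP1, chr18:59899746-59900045, + strand: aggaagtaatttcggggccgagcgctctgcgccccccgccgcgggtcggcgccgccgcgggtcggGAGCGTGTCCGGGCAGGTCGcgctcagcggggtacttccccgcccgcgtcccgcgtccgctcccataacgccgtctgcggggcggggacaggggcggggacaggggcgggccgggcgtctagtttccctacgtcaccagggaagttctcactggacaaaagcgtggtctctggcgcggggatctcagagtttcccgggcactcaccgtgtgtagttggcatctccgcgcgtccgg
CDKN1A, chr6:36678464-36678763, + strand: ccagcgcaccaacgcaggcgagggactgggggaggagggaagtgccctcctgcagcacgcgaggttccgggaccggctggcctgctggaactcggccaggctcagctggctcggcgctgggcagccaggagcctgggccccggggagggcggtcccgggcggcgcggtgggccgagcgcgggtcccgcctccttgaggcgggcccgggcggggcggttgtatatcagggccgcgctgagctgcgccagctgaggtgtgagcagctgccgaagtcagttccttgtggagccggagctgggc
The MDM2 window holds a pair of sites, with 2 and 3 mismatches, that begin at positions -94 and -56 from the start. The SESN1 site, with 3 mismatches, begins at -49 and contains an exact half-site, which 6.63% of all windows hold. The PMAIP1 site has 3 mismatches and begins at -185. A match is a likeness of letters and not a measured binding site, and the windows are too short to hold the distal elements for which CDKN1A is known.

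Between the lines, 7 of these genes differed, and between the arms none passed the test. CDKN1A, which encodes the cyclin-dependent kinase inhibitor p21, had the widest difference, 14.6-fold lower in D425 than in HD-MB03. MDM4 and ZMAT3 were also lower in D425, and GADD45A, PMAIP1, BBC3 and RRM2B were higher there. In the edgeR comparison of the lines over both arms 7 of the 9 genes passed an adjusted p of 0.05, 4 higher and 3 lower in D425. Across all genes tested the share that passed was 46.0%, with 24.4% higher and 21.6% lower. Libraries of the lines did not overlap at all for 4 of the 9, RRM2B (higher) and CDKN1A, ZMAT3 and MDM4 (lower), where 29.1% of all genes showed no overlap, 15.3% higher and 13.8% lower. In these bulk samples fewer expressing cells and less RNA per cell cannot be told apart.

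**Figure D1:**
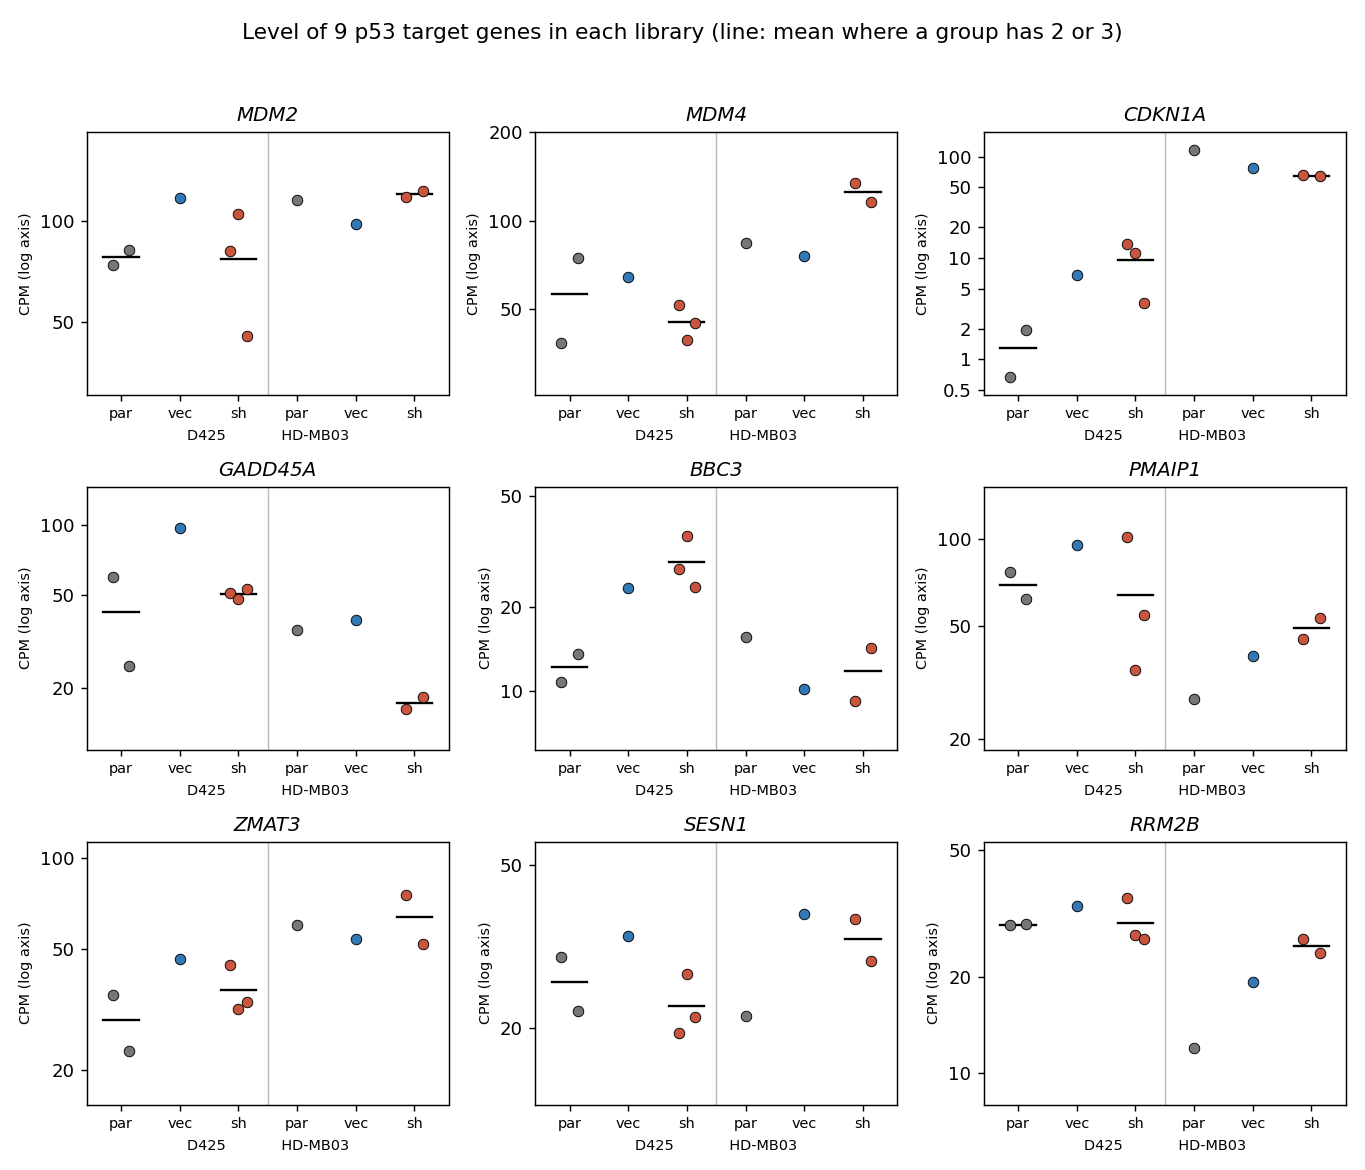
Level of each of the 9 genes in CPM (log axis) in every library, with parental (par), vector (vec) and shCRX (sh) libraries of D425 on the left of each panel and of HD-MB03 on the right; points are libraries and black lines are means of groups of 2 or 3. CDKN1A lies between 0.672 and 13.8 CPM in D425 and between 64.2 and 117.1 in HD-MB03, whereas MDM2 and SESN1 overlap between the lines.

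MDM2 (ENSG00000135679.17, chromosome 12), the ubiquitin ligase, was similar in most libraries. In D425 it stood at 73.8 and 81.6 CPM in the parental libraries, 116.9 in the vector library and 81.4, 104 and 45.5 in shCRX replicates 1 to 3. In HD-MB03 it stood at 115 CPM in the parental, 97.6 in the vector and 118 and 123 in the shCRX libraries. The lowest value was that of D425 shCRX replicate 3 and the D425 vector library reached the HD-MB03 range, so the lines overlapped. D425 minus HD-MB03 was -0.43 ± 0.21 (log2 fold change, SE, 95% interval -0.89 to 0.03; edgeR adjusted p = 0.114), which did not pass, though it did without D425 shCRX replicate 2 (-0.53, edgeR adjusted p = 0.038). The shCRX difference was -0.23 ± 0.27 in D425 (95% interval -0.81 to 0.35) and 0.18 ± 0.33 in HD-MB03 (-0.54 to 0.90), and neither passed (edgeR adjusted p = 0.723 and 0.824). Exons of MDM2 overlap those of CPM and of 2 other annotated genes, and without a stated strand setting reads there could belong to either.

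MDM4 (ENSG00000198625.8, chromosome 1), which blocks the activation domain of p53, was 1.94-fold lower in D425. Its levels in D425 were 38.4 and 74.5 CPM in the parental libraries, 64.2 in the vector library and 51.8, 39.3 and 44.8 in shCRX. In HD-MB03 they were 84.3 CPM in the parental, 76.1 in the vector and 134 and 116 in the shCRX libraries. All 6 D425 libraries lay below all 4 of HD-MB03, narrowly so for D425 parental replicate 2. The line difference was -0.95 ± 0.18 (log2 fold change, SE; edgeR adjusted p = 0.00103). It passed inside both number sets (-0.82, edgeR adjusted p = 0.0332, and -1.09, edgeR adjusted p = 0.00568) and not between the controls alone (-0.45, edgeR adjusted p = 0.207). In HD-MB03 both libraries labelled shCRX were above both controls, with a difference of 0.64 ± 0.29 (95% interval 0.02 to 1.27; edgeR adjusted p = 0.276), and in D425 it was -0.38 ± 0.23 (edgeR adjusted p = 0.444). The effects differed by -1.02 ± 0.37 between the lines, which did not pass (edgeR adjusted p = 0.140).

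CDKN1A (ENSG00000124762.9, chromosome 6) was the most variable of the 9 genes. In D425 it was lowest in the parental libraries, at 0.672 and 1.94 CPM from 12 and 24 counts. A count of 3 was worth 0.166 and 0.241 CPM in these libraries. It stood at 6.73 CPM in the vector library (74 counts) and at 13.8, 11.2 and 3.58 in shCRX replicates 1 to 3 (150, 54 and 14 counts). In HD-MB03 it stood at 117.1 CPM in the parental, 77.2 in the vector and 65.3 and 64.2 in the shCRX libraries. The lowest HD-MB03 library was above the highest D425 library, and within D425 the highest and lowest libraries differed 20.6-fold against 1.82-fold in HD-MB03. The line difference was -3.87 ± 0.48 (log2 fold change, SE, 95% interval -4.91 to -2.82; edgeR adjusted p = 5.89e-05). It passed inside both number sets, at -3.29 and -4.44 (edgeR adjusted p = 0.00354 and 5.69e-04), and in all 21 alternative analyses, with values from -5.03 to -3.13.

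Within D425, CDKN1A was on average 3.33-fold higher in shCRX than in control libraries, without passing the test. Control libraries averaged 3.11 ± 3.19 CPM (SD, n = 3) and shCRX libraries 9.53 ± 5.32 (SD, n = 3), and the vector library lay above shCRX replicate 3. This is a log2 fold change of 1.73 ± 0.65 (SE, 95% interval 0.32 to 3.15; edgeR unadjusted p = 0.0206, adjusted p = 0.189). Leaving out the vector library raised it to 2.98 (edgeR adjusted p = 0.0347), and it was 0.54 with the vector library alone as control. In HD-MB03 the difference was -0.59 ± 0.68 (95% interval -2.08 to 0.91; edgeR adjusted p = 0.700), although both libraries labelled shCRX lay below both controls. The effects differed by 2.32 ± 0.94, which did not pass (edgeR adjusted p = 0.187) except without the D425 vector library (3.58, edgeR adjusted p = 0.0303). In the GENCODE annotation read here an antisense gene, DINOL, overlaps CDKN1A exons. With no stated strand setting, how reads there were counted is not known.

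GADD45A (ENSG00000116717.7, chromosome 1), a stress sensor that binds cell cycle and repair proteins, was 2.18-fold higher in D425. Its levels in D425 were 59.6 and 24.7 CPM in the parental libraries, 97.1 in the vector library and 50.7, 47.98 and 53.2 in shCRX. In HD-MB03 they were 35.4 CPM in the parental, 39.1 in the vector and 16.2 and 18.3 in the shCRX libraries. D425 parental replicate 2 was below both HD-MB03 controls, so the lines overlapped, and the 3 D425 shCRX libraries were closer together than the 3 controls. The line difference was 1.12 ± 0.30 (log2 fold change, SE; edgeR adjusted p = 0.00941). It passed in the high number set (1.81, edgeR adjusted p = 0.00706), and not in the low number set (0.44, edgeR adjusted p = 0.461) or between controls (0.70, edgeR adjusted p = 0.229). HD-MB03 controls averaged 37.3 ± 2.65 CPM and shCRX libraries 17.2 ± 1.44 (SD, n = 2 and n = 2). That difference was -1.11 ± 0.47 (95% interval -2.14 to -0.09; edgeR unadjusted p = 0.0358, adjusted p = 0.254), and it passed with no filter on low counts (-1.04, edgeR adjusted p = 0.0338). In D425 the value was -0.26 ± 0.36 (edgeR adjusted p = 0.780), and its sign turned to 0.26 without the vector library. Averaged over the lines it was -0.68 ± 0.30 (edgeR adjusted p = 0.346).

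BBC3 (ENSG00000105327.11, chromosome 19) encodes PUMA, a BH3-only protein that frees the mitochondrial apoptosis machinery. In D425 it stood at 10.7 and 13.6 CPM in the parental libraries, 23.4 in the vector library and 27.4, 35.98 and 23.5 in shCRX. All 3 shCRX libraries were above all 3 controls, by a narrow gap to the vector library. BBC3 was the only one of the 9 genes without overlap of the arms in D425, where 23.0% of all genes showed none, 11.5% with shCRX higher. In HD-MB03 it stood at 15.6 CPM in the parental library and 10.2 in the vector library, from 30 and 19 counts, and at 9.22 and 14.3 in shCRX. The D425 log2 fold change for shCRX was 0.87 ± 0.32 (SE, 95% interval 0.19 to 1.55; edgeR unadjusted p = 0.0161, adjusted p = 0.168). It became -0.01 after correction for GC content and transcript length (edgeR adjusted p = 0.99). The transcript of BBC3 has a GC content of 69.7% against a median of 48.2% over the genes tested, and over all genes the shCRX fold change in D425 moved with GC content (Spearman's rho 0.277; -0.357 in HD-MB03), as a description across genes that share libraries. The HD-MB03 difference was -0.14 ± 0.43 (edgeR adjusted p = 0.900).

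Between the lines BBC3 was 1.74-fold higher in D425 (log2 fold change 0.80 ± 0.27, SE; edgeR adjusted p = 0.0275), and the GC content and length correction left this at 0.79 (edgeR adjusted p = 0.0232). The D425 parental libraries overlapped the HD-MB03 range, and the other 4 D425 libraries were above it. The difference passed in the low number set (1.17, edgeR adjusted p = 0.0444), and not in the high number set (0.43, edgeR adjusted p = 0.387) or between controls (0.29, edgeR adjusted p = 0.598). It was lost without the D425 vector library (0.60, edgeR adjusted p = 0.0616), the HD-MB03 vector library (0.67, edgeR adjusted p = 0.119) or HD-MB03 shCRX replicate 1 (0.66, edgeR adjusted p = 0.104), and with parental libraries alone as control (0.48, edgeR adjusted p = 0.186). Exons of BBC3 overlap the microRNA genes MIR3190 and MIR3191.

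PMAIP1 (ENSG00000141682.11, chromosome 18) encodes NOXA, a BH3-only protein that binds MCL1, and was 1.75-fold higher in D425. Its levels in D425 were 76.8 and 61.7 CPM in the parental libraries, 95.4 in the vector library and 102, 34.9 and 54.5 in shCRX. In HD-MB03 they were 27.6 CPM in the parental, 39.1 in the vector and 45.03 and 53.1 in the shCRX libraries. D425 shCRX replicates 2 and 1 held the lowest and the highest D425 values, and replicate 2 was inside the HD-MB03 range. The line difference of 0.81 ± 0.27 (log2 fold change, SE; edgeR adjusted p = 0.0281) passed between the controls alone (1.23, edgeR adjusted p = 0.0330) and in neither number set (0.95 and 0.67, edgeR adjusted p = 0.0903 and 0.190). The call was lost without the D425 vector library (0.71, edgeR adjusted p = 0.0626), the HD-MB03 parental library (0.70, edgeR adjusted p = 0.118), HD-MB03 shCRX replicate 1 (0.75, edgeR adjusted p = 0.0841) or HD-MB03 shCRX replicate 2 (0.86, edgeR adjusted p = 0.0508). It was lost too with vector libraries (0.83, edgeR adjusted p = 0.172) or parental libraries (0.87, edgeR adjusted p = 0.0792) alone as control, and after the GC content and length correction (0.55, edgeR adjusted p = 0.103). The shCRX difference was -0.28 ± 0.32 in D425 and 0.56 ± 0.42 in HD-MB03 (edgeR adjusted p = 0.725 and 0.537). The HD-MB03 value became 0.04 after the GC content and length correction (edgeR adjusted p = 0.98).

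ZMAT3 (ENSG00000172667.6, chromosome 3), an RNA-binding zinc finger protein that acts on splicing, was 1.68-fold lower in D425. Its levels in D425 were 35.2 and 23.1 CPM in the parental libraries, 46.4 in the vector library and 44.3, 31.8 and 33.5 in shCRX. In HD-MB03 they were 59.9 CPM in the parental, 54.2 in the vector and 75.3 and 52.1 in the shCRX libraries. The lines did not overlap and the arms overlapped in both lines. The line difference was -0.75 ± 0.20 (log2 fold change, SE; edgeR adjusted p = 0.00945). It passed in the high number set (-0.87, edgeR adjusted p = 0.0318), and not in the low number set (-0.63, edgeR adjusted p = 0.123), between the controls alone (-0.71, edgeR adjusted p = 0.0806), with vector libraries alone as control (-0.52, edgeR adjusted p = 0.144) or without HD-MB03 shCRX replicate 1 (-0.61, edgeR adjusted p = 0.0536). For shCRX it was 0.08 ± 0.26 in D425 (95% interval -0.48 to 0.64) and 0.16 ± 0.32 in HD-MB03 (-0.54 to 0.86), with edgeR adjusted p = 0.925 and 0.836.

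SESN1 (ENSG00000080546.9, chromosome 6) encodes a sestrin, which restrains growth signalling through mTORC1, and was the least variable of the 9 genes, with 1.95-fold between its highest and lowest libraries. In D425 it stood at 29.8 and 21.9 CPM in the parental libraries, 33.5 in the vector library and 19.5, 27.1 and 21.2 in shCRX. In HD-MB03 it stood at 21.3 CPM in the parental, 38.1 in the vector and 37.02 and 29.1 in the shCRX libraries. Lines and arms overlapped. D425 minus HD-MB03 was -0.31 ± 0.21 (log2 fold change, SE, 95% interval -0.75 to 0.14; edgeR adjusted p = 0.242). The shCRX difference was -0.34 ± 0.26 in D425 and 0.16 ± 0.33 in HD-MB03 (edgeR adjusted p = 0.551 and 0.843).

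RRM2B (ENSG00000048392.7, chromosome 8), the p53-inducible subunit of ribonucleotide reductase, was 1.53-fold higher in D425 and was nearly constant there. Its D425 levels were 29.2 and 29.4 CPM in the parental libraries, 33.4 in the vector library and 35.5, 27.1 and 26.3 in shCRX. In HD-MB03 they were 11.97 CPM in the parental and 19.3 in the vector library, from 23 and 36 counts, and 26.3 and 23.9 in shCRX. The highest HD-MB03 library lay just under the lowest D425 library. The line difference was 0.61 ± 0.18 (log2 fold change, SE; edgeR adjusted p = 0.0162), with 0.93 in the low number set (edgeR adjusted p = 0.0232) and 0.29 in the high number set (edgeR adjusted p = 0.399). It no longer passed without HD-MB03 parental replicate 1 (0.46, edgeR adjusted p = 0.0801) or HD-MB03 shCRX replicate 2 (0.57, edgeR adjusted p = 0.0602), or with vector libraries alone as control (0.51, edgeR adjusted p = 0.143). In HD-MB03 the difference for shCRX was 0.68 ± 0.29 (95% interval 0.05 to 1.32; edgeR unadjusted p = 0.0364, adjusted p = 0.255), where the controls are the 2 libraries with the most reads that did not align. The HD-MB03 value became 0.12 after the GC content and length correction, the lowest of 18 alternatives (0.12 to 1.09). The transcript of RRM2B has a GC content of 36.4%, against a median of 48.2% over the genes tested. In D425 the difference for shCRX was -0.04 ± 0.22 (95% interval -0.51 to 0.43; edgeR adjusted p = 0.960).

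**Figure D2:**
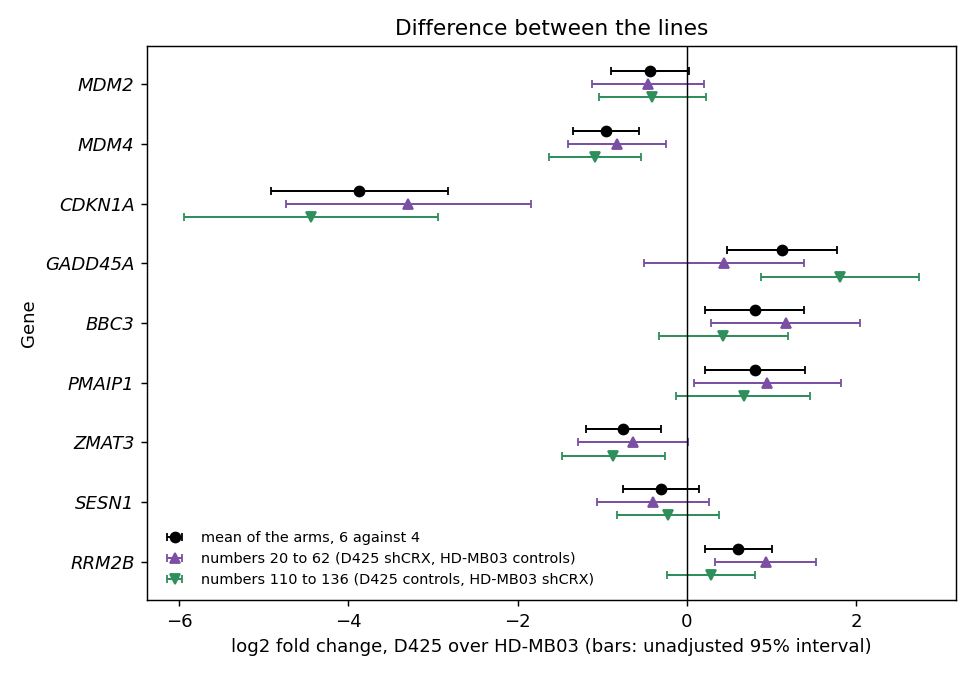
Log2 fold change of D425 over HD-MB03 for each of the 9 genes with unadjusted 95% intervals. Black circles are over both arms, 6 against 4 libraries. Triangles are inside each set of library numbers, shCRX libraries of 1 line against controls of the other. The points of a gene lie on 1 side of 0 in every case, CDKN1A is farthest from 0 (-3.87, -3.29 and -4.44), and the intervals of CDKN1A and MDM4 leave out 0 in both sets.

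The comparison of shCRX with control libraries was the purpose of the knockdown, and none of the 9 genes passed it. In D425 0 of 9 passed with edgeR and 0 with DESeq2, against 2.97% of all genes with edgeR. At an unadjusted p under 0.05 CDKN1A and BBC3 passed, 2 of 9, against 17.3% of all genes. In HD-MB03 0 of 9 passed with either tool, against 1.51% of all genes with edgeR, and RRM2B, GADD45A and MDM4 had an unadjusted p under 0.05, 3 of 9 against 17.2%. No overlap of the arms was seen in HD-MB03 for 6 of 9, 4 higher (RRM2B, MDM2, PMAIP1, MDM4) and 2 lower (GADD45A, CDKN1A), where 52.3% of all genes showed none, 30.5% higher and 21.8% lower. The difference between the lines' effects passed for 0 of 9 with either tool (4.16% of all genes with edgeR), and CDKN1A and MDM4 had an unadjusted p under 0.05 (21.2%). The mean of the lines passed for 0 of 9 with either tool (0.225% of all genes with edgeR), with GADD45A alone under an unadjusted 0.05 (13.2%). The median log2 fold change of the 9 genes was -0.23 in D425 (0.02 over all genes) and 0.16 in HD-MB03 (0.10 over all genes). A missed threshold does not show equal levels, and the 95% intervals are wide enough to hold a change of 1 on the log2 scale in at least 1 direction for CDKN1A, BBC3 and GADD45A in both lines.

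**Figure D3:**
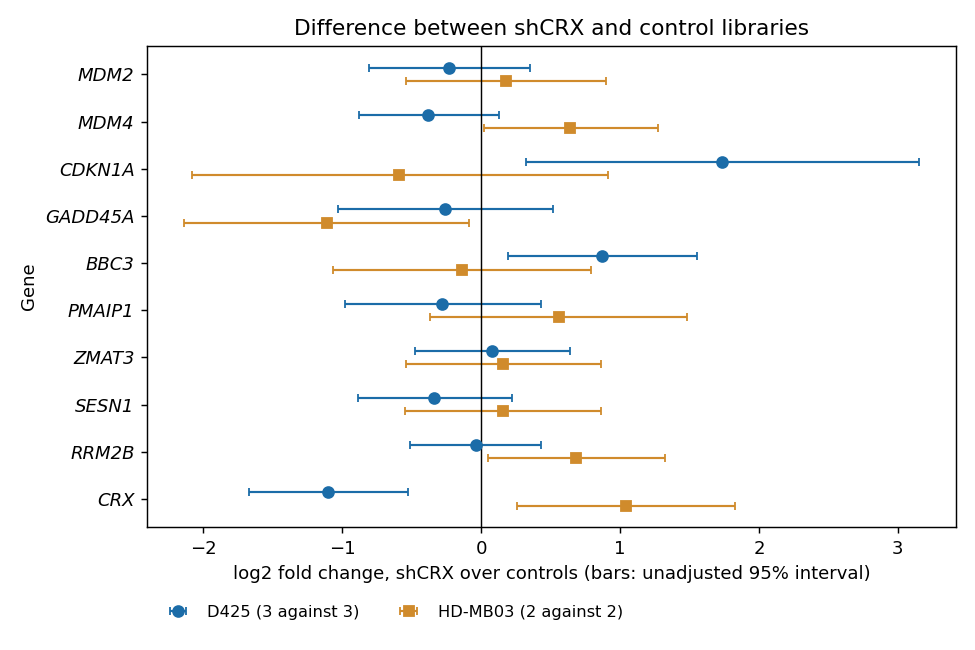
Log2 fold change of shCRX over control libraries with unadjusted 95% intervals for the 9 genes and CRX, in D425 (circles, 3 against 3) and HD-MB03 (squares, 2 against 2). CDKN1A is at 1.73 in D425 and -0.59 in HD-MB03, GADD45A is at -1.11 in HD-MB03, and CRX itself is at -1.10 and 1.04.

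The controls of a line were not alike for these genes. In D425 the vector library was above both parental libraries for 8 of the 9, all but MDM4, where 36.2% of all genes had the vector library highest. Over the mean of the parental libraries it was 5.16-fold higher for CDKN1A, 2.30-fold for GADD45A, 1.92-fold for BBC3, 1.59-fold for ZMAT3 and 1.504-fold for MDM2. These are values of 1 vector library with no replicate check. In HD-MB03 the vector library was above the parental library for 4 of the 9 (PMAIP1, GADD45A, SESN1, RRM2B), where it was higher for 50.2% of all genes. CDKN1A, BBC3, MDM2, ZMAT3 and MDM4 were lower there, with a ratio of 0.659 for CDKN1A and 0.652 for BBC3. In the edgeR fit over both lines vector minus parental was above 0 for all 9, from 0.02 for MDM4 to 0.91 ± 0.49 for CDKN1A (edgeR adjusted p = 0.896). The sign for MDM4 turned without D425 parental replicate 1 (-0.18), and those for MDM2 and MDM4 after the GC content and length correction. The median was 0.44 against 0.01 over all genes. None of the 9 passed, and of all genes 0 passed with edgeR (0%), 5.17% had an unadjusted p under 0.05 and 7 genes passed with DESeq2. SESN1 had the smallest p of the 9 (0.60 ± 0.27; edgeR unadjusted p = 0.0498, adjusted p = 0.896).

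Because the D425 vector library is a control, it weighs on the D425 comparison of shCRX. Its level was at or above the mean of the shCRX libraries for MDM2, MDM4, PMAIP1, GADD45A, ZMAT3, SESN1 and RRM2B, and below it for CDKN1A and BBC3. The part of this library in the other D425 values, beyond the analyses without it, was not tested.

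Wider lists of the p53 pathway were read the same way. In 5 lists of p53 targets with 58 genes, the 9 included, 55 were tested. For shCRX 0 of 55 passed with edgeR in D425, against 2.97% of all genes. There DESeq2 called 5, the fit with no filter 6, that without the D425 vector library 4 and the replicate block 2. All genes called in D425 were 476 in the main fit. They were 990 with DESeq2, 1211 with no filter and 185 without the D425 vector library, so these target counts are not directly comparable. With edgeR 0 targets passed in HD-MB03 (1.51% of all genes) and in the mean of the lines (0.225%). DESeq2 called 1 target in each, where all genes called were 793 and 369. In the difference of effects 1 of 55 passed (1.82%, below the 4.16% of all genes). This was PLXNB2, which encodes a semaphorin receptor. Its D425 means were 67.8 ± 4.65 CPM without and 105 ± 11.8 with shCRX (SD, n = 3 and n = 3) and at 299.6 ± 6.29 and 185 ± 28.8 in HD-MB03 (n = 2 and n = 2). Between the lines 32 of 55 passed, 18 higher and 14 lower in D425 (58.2%, against 46.0% of all genes). Without the 9 members it was 25 of 46, 14 higher and 11 lower (54.3%, near the share of all genes), with a median log2 fold change of 0.21 against 0.05 over all genes. The 32 became 21 without HD-MB03 shCRX replicate 1, 19 with vector libraries alone as control and 20 in each number set.

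The targets of apoptosis went both ways between the lines, with 6 higher and 5 lower of 17 (64.7%, against 46.0% of all genes, 24.4% higher and 21.6% lower; median 0.16). FAS and TNFRSF10A, which encode death receptors at the cell surface, were lower in D425. Another death receptor gene of the list, TNFRSF10B, named after its values were seen, went the other way. It was higher in D425 by 0.83 ± 0.26 (log2 fold change, SE; edgeR adjusted p = 0.0218), from 12515 counts in D425 and 4074 in HD-MB03. FAS differed by -4.26 ± 0.45 (log2 fold change, SE; edgeR adjusted p = 9.89e-06), from 24 counts over the 6 D425 libraries and 270 over the 4 of HD-MB03. TNFRSF10A had 0 counts in D425 against 453 in HD-MB03, at least 289-fold lower against a floor of 3 counts over the group. PIDD1, an adaptor of caspase activation, was also lower (-1.26 ± 0.22, edgeR adjusted p = 4.49e-04). TP53I3, a quinone oxidoreductase, was higher in D425 (1.67 ± 0.22, edgeR adjusted p = 5.07e-05), and so was TP53INP1, which takes part in autophagy and cell death (1.13 ± 0.27, edgeR adjusted p = 0.00380), though not in the high number set (0.80, edgeR adjusted p = 0.0961).

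The targets of metabolism, autophagy and signalling had 9 higher and 4 lower of 17 (76.5%, against 46.0% of all genes; median 0.66), where ZMAT3 was one of the lower. SESN2, the other sestrin of the list, was higher in D425 by 2.88 ± 0.60 (log2 fold change, SE; edgeR adjusted p = 0.00238), with D425 libraries from 23.2 to 345 CPM and HD-MB03 libraries from 15.5 to 22.9, and just missed the threshold with vector libraries alone as control (3.29, edgeR adjusted p = 0.0517). TIGAR, which restrains glycolysis, was higher by 1.26 ± 0.17 (edgeR adjusted p = 5.59e-05), ANKRA2 by 1.60 ± 0.26 (edgeR adjusted p = 3.42e-04) and the ubiquitin ligase subunit FBXO22 by 0.66 ± 0.14 (edgeR adjusted p = 0.00193). NINJ1, which acts in membrane rupture of dying cells, was lower (-1.77 ± 0.32, edgeR adjusted p = 7.09e-04), and PLXNB2 as well (-1.48 ± 0.13, edgeR adjusted p = 2.14e-06). In the low number set TIGAR (0.63, edgeR adjusted p = 0.0656), FBXO22 (0.41, edgeR adjusted p = 0.131) and NINJ1 (-1.01, edgeR adjusted p = 0.124) did not pass. In the list of cell cycle arrest 1 was higher (GADD45A) and 3 were lower of 8, near the share of all genes (median -0.69). In that of DNA repair and nucleotide supply 1 was higher (RRM2B) and 1 lower of 7 (28.6%, below the 46.0% of all genes), the damage sensor DDB2 (-1.02 ± 0.23, edgeR adjusted p = 0.00260). DDB2 did not pass in the high number set (-0.46, edgeR adjusted p = 0.291), between controls alone (-0.82, edgeR adjusted p = 0.0644) or with vector libraries alone as control (-0.49, edgeR adjusted p = 0.102). In that of feedback and stability 1 was higher and 1, MDM4, lower of 6 (33.3%).

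**Figure D4:**
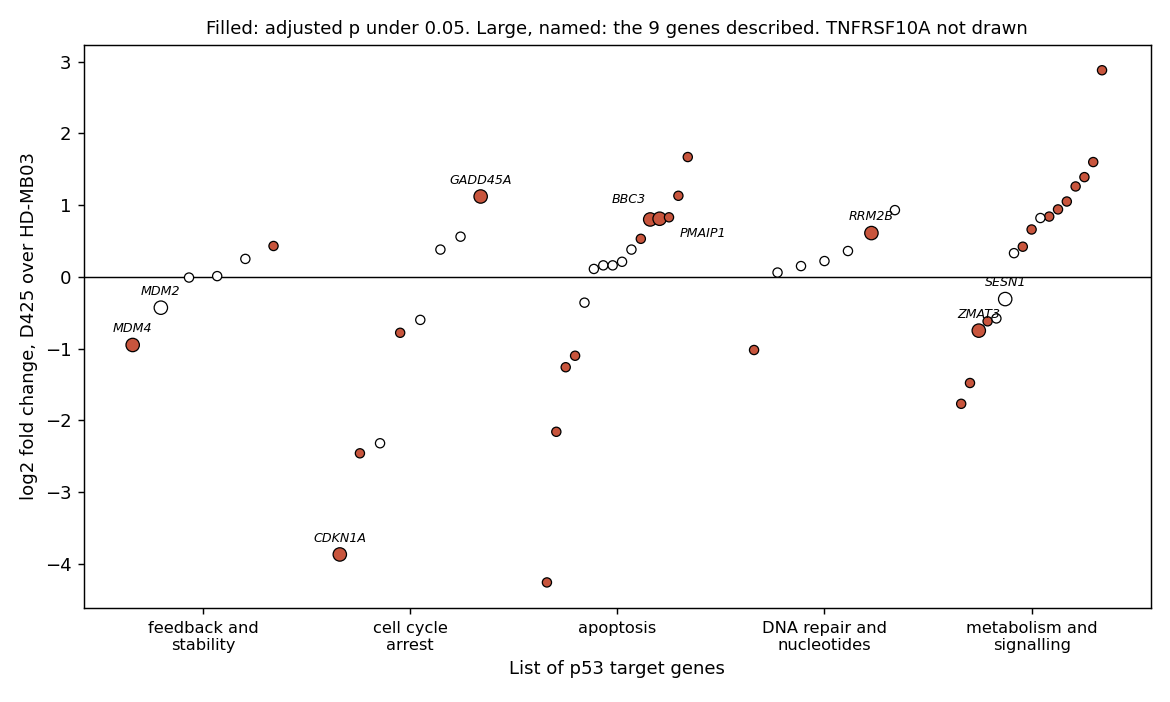
Log2 fold change of D425 over HD-MB03 for 54 of the 55 tested genes of 5 lists of p53 targets, in rising order within a list; filled points passed an adjusted p of 0.05 and large named points are the 9 genes described. Filled points lie on both sides of 0 in every list, 18 above and, with TNFRSF10A, which is not drawn because D425 held 0 counts, 14 below.

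Of 15 upstream regulators of p53, none passed for shCRX in either line, against 2.97% of all genes in D425 and 1.51% in HD-MB03. Between the lines 3 were higher and 1 was lower in D425, 26.7% against 46.0% of all genes. These 4 were named after their values were seen: the damage kinases ATM (0.73 ± 0.18, log2 fold change, SE; edgeR adjusted p = 0.00493) and CHEK1 (0.52 ± 0.19; edgeR adjusted p = 0.0426), the damage adaptor TP53BP1 (0.53 ± 0.17; edgeR adjusted p = 0.0223) and, lower, the acetyltransferase KAT5 (-0.54 ± 0.17; edgeR adjusted p = 0.0176). ATM did not pass with vector libraries alone as control (0.53, edgeR adjusted p = 0.135). The other three were less stable: of 21 alternatives CHEK1 did not pass in 13 (0.24 to 0.67), TP53BP1 in 7 (0.24 to 0.81) and KAT5 in 7 (-1.09 to 0, the last in the high number set).

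Levels between the genes were set out per length of exons. That length is the union of all exons in the GENCODE annotation, from 2069 bases for GADD45A to 13284 for MDM2. Exons enter it whether or not these cells use them, so the order of the genes also depends on the annotation. In D425 PMAIP1 and GADD45A were highest, at 31.7 ± 11.4 and 26.8 ± 11.4 reads per kilobase per M reads (RPKM, SD, n = 6), with overlapping libraries. All GADD45A libraries were above all those of BBC3, the next gene (7.05 ± 2.90). From there MDM2, RRM2B, SESN1, MDM4, ZMAT3 and CDKN1A followed, each overlapping its neighbour, down to 2.07 ± 1.73 for CDKN1A. In HD-MB03 CDKN1A was highest, at 26.5 ± 8.13 RPKM (SD, n = 4), followed by PMAIP1 (18.4 ± 4.80), GADD45A (13.2 ± 5.65), MDM4 (9.33 ± 2.47), MDM2 (8.53 ± 0.821), ZMAT3, SESN1, BBC3 and RRM2B (3.67 ± 1.14), and the libraries of every neighbouring pair overlapped. The rank of CDKN1A thus went from the lowest of the 9 in D425 to the highest in HD-MB03, while PMAIP1 and GADD45A kept ranks near the top.

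Genes most like MDM2 and CDKN1A were found by the root mean square difference of log2(CPM + 1), each gene centred on its mean, over the 10 libraries and 10458 protein-coding genes with at least 5 CPM. For MDM2 they were ATXN7 (0.175), SLC25A44 (0.208) and ICE1 (0.216), against a standard deviation of 0.436 for MDM2 itself. For CDKN1A they were SOWAHC (0.709), XYLT1 (0.710) and KCNK12 (0.716), against a standard deviation of 2.19, so even the nearest genes were some way from it. XYLT1 lay between 3.07 and 8.68 CPM in D425 and between 90.2 and 159 in HD-MB03. All these libraries share lines, depth and number sets, and the likeness is a description of these 10 libraries alone.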

How the data were processed

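For each library the authors deposited raw read counts by gene, with no normalisation. The submitters' processing notes name HISAT2, HTSeq, bcl2fastq and DESeq2 and build GRCh37 (hg19); versions are not given in the sources used here. Between 20.7% and 49.5% of reads were in the 5 summary entries and were left out. Symbols were matched for 51996 of 57820 identifiers. From the counts, edgeR 4.0.16 in R 4.3.3 was run with TMM scaling. Low counts were removed by filterByExpr over the 4 combinations of line and arm, whose means were then fitted by robust quasi-likelihood with 6 residual degrees of freedom (6 group means and 4 for vector against parental). Tests were two-sided with Benjamini-Hochberg adjustment over 16006 genes, a threshold of 0.05 and a biological coefficient of variation of 26%. CPM are counts over the TMM-scaled library size. No pair of libraries was identical (0 pairs), and libraries of a group differed by more than counting noise (chi-square per degree of freedom 9.23 to 52.8). Floors cover counting error only. A count of 3 was worth 0.166 CPM in the deepest and 1.53 CPM in the shallowest library.

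The 9 genes and all lists were chosen with earlier results of these data known. Named genes are the 9, CRX, up to 6 called genes per comparison and direction from the target and regulator lists by smallest p, and the 3 genes most like MDM2 and CDKN1A. The fit was checked on simulated data with known answers. Of 100 genes set to change by 1 on the log2 scale, 24% were recovered in D425 shCRX, 11% in HD-MB03 shCRX and 40% between the lines. For a change of 2 the shares were 73%, 59% and 77%. Between 4 and 6 unchanged genes were called. Each simulated comparison changed only these 100 genes by 1 and 100 by 2, of 16006, while 46.0% of all genes passed in the real comparison of the lines. The adjusted p depends on how many genes change, so the recovered shares do not carry over to that comparison. Alternatives were other scalings, DESeq2 1.42.0, no filter, each library left out, 1 kind of control alone, a replicate block, the lines within controls or number sets, and, added after seeing the data, a correction for GC content and length. Same-numbered parental and shCRX libraries of D425 share only that number.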

Additional observations from a re-analysis of the deposited data

Results flagged for a closer look

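The response of CRX to the label shCRX was not alike in the 2 lines: the effects differed by -2.14 (log2, D425 minus HD-MB03, edgeR test of the difference, adjusted p = 0.0199). It was 47.4 and 22.2 CPM in D425 controls and shCRX and 12.4 and 25.6 in HD-MB03. It no longer passed without HD-MB03 parental replicate 1 (-2.18, edgeR adjusted p = 0.105), HD-MB03 vector replicate 1 (-2.17, edgeR adjusted p = 0.0601) or HD-MB03 shCRX replicate 1 (-2.03, edgeR adjusted p = 0.0795), nor with vector libraries (-2.61, edgeR adjusted p = 0.101) or parental libraries (-1.87, edgeR adjusted p = 0.0862) alone as control.

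The response of PLXNB2 differed by 1.33 ± 0.27 (log2, SE; edgeR adjusted p = 0.0171). It no longer passed when HD-MB03 parental replicate 1 was left out (1.33, edgeR adjusted p = 0.0663), nor without HD-MB03 shCRX replicate 1 (1.17, edgeR adjusted p = 0.124), with vector libraries (1.45) or parental libraries (1.24) alone as control, and after the GC content and length correction (0.65, edgeR adjusted p = 0.218). Within a line arm and number set cannot be told apart, and the part of the sets in either difference was not tested.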

How the results depend on the processing

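In the comparison of the lines the number of the 9 genes called stayed at 7 with DESeq2 size factors, library totals, DESeq2, no filter and the replicate block. With vector libraries as the only controls it was 4, and it was 3 between controls alone, 4 in each number set and 4 to 8 with 1 library left out, lowest without HD-MB03 shCRX replicate 1. CDKN1A was called in all 21 alternatives. Library totals moved the median of all genes by 0.13 in D425 shCRX and 0.11 in the line comparison, and the GC content and length correction moved it by 0.11 in the difference of effects.

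The replicate block (same-numbered D425 parental and shCRX libraries, correlation 0.0258) changed no call of the 9 genes or CRX, raised the p53 targets called in D425 from 0 to 2, and left 7 of the 9 called between the lines; all genes called in the mean of the lines went from 36 to 57. All genes called were 476 in D425, 241 in HD-MB03, 666 in the difference, 36 in the mean of the lines, 7365 between the lines and 0 for vector against parental. With DESeq2 they were 990, 793, 1358, 369 and, for vector against parental, 7. With no filter they were 1211, 790, 1579, 405 and, for vector against parental, 26, and 1 of the 9 genes was called in each of HD-MB03 (GADD45A), the difference (MDM4) and the mean (GADD45A). With parental libraries alone as control they were 104, 62, 227 and 2, and with vector libraries alone 8, 1, 3, 0 and, between the lines, 4613. Library totals gave 18 in the mean, and the GC content and length correction 345 in the difference and 67 in the mean. With 1 library left out they ranged from 185 to 430 in D425, 15 to 329 in HD-MB03, 177 to 841 in the difference, 3 to 71 in the mean and 0 to 1 for vector against parental, and members called from 0 to 1 in D425 and in the difference (CDKN1A, without the D425 vector library). An arm left with 1 library was assumed to vary like the others.

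Values whose sign turned did not pass where they turned. KAT5 between the lines was 0 in the high number set. After the GC content and length correction the D425 values were -0.01 for BBC3 and 0.09 for RRM2B, the HD-MB03 values 0.63 for BBC3, -0.19 for ZMAT3 and -0.14 for SESN1, the differences -0.64 for BBC3 and 0.46 for ZMAT3, the mean -0.07 for PMAIP1, and vector against parental -0.02 for MDM2 and -0.15 for MDM4. Library totals gave 0.10 for RRM2B in D425, 0.01 for ZMAT3 in the difference, and 0.06 for MDM2 and 0.07 for CRX in the mean. Vector libraries alone gave -0.36 for ZMAT3 in D425, 0.18 for BBC3 and -0.23 for SESN1 in HD-MB03, and -0.14 for PMAIP1 and -0.07 for ZMAT3 in the mean. Parental libraries alone gave 0.25 for GADD45A and 0.02 for RRM2B in D425, 0.21 for ZMAT3 in the difference, and 0.03 for MDM2, 0.22 for SESN1 and 0.12 for CRX in the mean.

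With 1 library left out, D425 values ranged from -0.52 to 0.01 for MDM2, -0.66 to 0.26 for GADD45A, -0.18 to 0.33 for ZMAT3 and -0.21 to 0.03 for RRM2B, and HD-MB03 values from -0.48 to 0.22 for BBC3, -0.13 to 0.41 for ZMAT3 and -0.19 to 0.66 for SESN1. The difference ranged from -0.34 to 0.19 for ZMAT3, and the mean from -0.17 to 0.08 for MDM2, -0.13 to 0.28 for PMAIP1, -0.03 to 0.24 for ZMAT3, -0.27 to 0.16 for SESN1 and -0.19 to 0.11 for CRX. Vector against parental ranged from -0.18 to 0.28 for MDM4. Apart from what the alternatives change by construction, the cause was not tested. The HD-MB03 controls held 1.96 and 2.08 M counted reads and that line has 2 libraries an arm; the parts of depth and number were not tested.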

Other observations

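A list of 12 genes of the integrated stress response, a pathway run by the transcription factor ATF4 that also activates SESN2, was higher in D425 than in HD-MB03 for 9 genes and lower for 0 (75.0%, edgeR adjusted p under 0.05), where 46.0% of all genes were called and 24.4% were higher, with a median log2 fold change of 1.17 against 0.05 over all genes. ATF4 itself differed by 0.59 ± 0.18 (log2 fold change, SE; edgeR adjusted p = 0.0157), but by 0.05 in the low number set (edgeR adjusted p = 0.909), and it also missed the threshold without HD-MB03 vector replicate 1 (0.50) or HD-MB03 shCRX replicate 1 (0.53) and with parental libraries alone as control (0.40). The difference was larger for DDIT3, which encodes the factor CHOP, by 3.53 ± 0.68 (edgeR adjusted p = 0.00145), which passed in all 21 alternatives (2.9 to 3.99). Both were named after their values were seen. For shCRX 0 of the 12 passed with edgeR in either line, against 2.97% of all genes in D425 and 1.51% in HD-MB03. The part of this pathway in the levels of the p53 targets was not tested.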
